A study of Arabidopsis thaliana with 38 samples.

Results

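A group of 114 probe sets was higher in both RNAi-A2 and RNAi-B1, a pair of HSP90-RNAi lines, than in the control lines Control-1 and Control-3. The members were selected on the same samples, by line means on the log2(signal + 16) scale. Each RNAi line had to be at least 0.585, or 1.5-fold, above each control line taken alone, with a mean signal over 100 in both RNAi lines. Of 12 probe sets that the choice left out by name, 11 met these limits, so that 125 of 22746 probe sets did so in all (0.55%). The limits turned toward lower values, with the mean signal over 100 asked of both control lines instead, were met by 11 probe sets (0.0484%). The probe table gave a single gene for 42 members, several genes for 1 and none for 71, and the latter are called by their probe set.

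All samples were aerial tissue of Col-0 seedlings aged 14 days, grown on plates in long days, with 10 seedlings pooled per sample. RNAi-A1, RNAi-A2 and RNAi-A3 carried construct A, RNAi-B1 construct B and RNAi-C1 construct C, each a hairpin of cytosolic HSP90 coding sequence driven by the viral 35S promoter, which is active in most cells. Constructs A and B were taken from HSP90.1 and construct C from HSP90.2. Control-1, Control-2 and Control-3 carried the vector with its GFP sequence and no HSP90 sequence. Every one of these lines descends from a single transformant, so the effect of its construct and that of its insertion site cannot be told apart within a line. The 3 HSP90-TDNA lines each have a homozygous insertion in the HSP90 gene of their name. The line hsp90.2-3 has a point mutation in the ATP-binding domain of HSP90.2, and untransformed Col-0 was the control of these 4 lines.

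HSP90 is a chaperone that holds unstable client proteins, among them kinases and receptors, in a form that can still receive a signal. In plants its best known clients are immune receptors with nucleotide-binding and leucine-rich repeat domains, which HSP90 stabilises together with SGT1 and RAR1. Several closely related cytosolic gene copies share this task, and the chaperone also restrains heat-shock factors. The genes of the group with a known role include some of defence, of responses to dehydration or cold, of calcium binding and of hormone modification.

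The data comprised 38 ATH-1 arrays of 35 biological samples from 13 lines. RNAi-A1, RNAi-A2, RNAi-A3 and Control-2 had 2 samples and all other lines 3, and this number of arrays sets the precision. Medians of 37 arrays lay between 170.6 and 220.8 and their correlations with the median profile between 0.975 and 0.988. The remaining array, of RNAi-A3 sample 2, had a correlation of 0.499 and was left out. RNAi-A1, RNAi-A3 and Control-2 were 1 experiment, Control-1, Control-3 and the lines RNAi-C1, RNAi-B1 and RNAi-A2 another, and the HSP90-TDNA lines and Col-0 the last. No experiment is stated for hsp90.2-3. The array control probe sets had medians of 183 to 274 on its arrays, 176 to 295 in the experiment of Col-0 and 450 to 788 in the other two. The leaf gene RCA had line means of 17343 to 23537, the root marker PYK10 2118 to 4096 and the root-hair gene EXPA7 41.6 to 115. The probe table named no flower marker and no cytosolic HSP90 gene, so these were not analysed here.

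In the lines that defined the group, the log2 difference of the members from the mean of both controls ran from 0.62 to 2.75 in RNAi-A2 (1.54- to 6.74-fold) and from 0.61 to 3.10 in RNAi-B1 (1.53- to 8.58-fold). The medians were 1.0 and 0.98. These values describe the choice and were not tested. In 107 of the 114 members, every sample of RNAi-A2 and RNAi-B1 lay above every sample of Control-1 and Control-3. The lines differed little from each other within the group, with 10 members at least 1.5-fold higher in RNAi-B1 than in RNAi-A2 and 0 the other way. Mean signals in RNAi-B1 spanned 101.7 to 3846 with a median of 378.8, against a median of 162.2 in Control-1. The last members inside the limit were 246385_at, 260101_at and 247949_at, whose smallest difference was 0.59, 0.59 and 0.60. The first outside were 255341_at, AT2G24600 and 265547_at, with 0.58 each. There were 21 members within 0.05 above the limit and 29 probe sets within 0.05 below it, so the edge of the group is not a gap in the data.

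Among the members with a gene, AT1G57630, which encodes a TIR domain as immune receptors have, stood farthest above the controls, by at least 1.90 for each pair of line means. Its signal was 17.1, 23.5 and 34.0 in Control-1 and 11.1, 8.60 and 24.4 in Control-3. It was 170 and 109 in RNAi-A2 and 170, 116 and 122 in RNAi-B1. CHI, a chitinase that cleaves fungal cell walls, was 141 to 212 over the 6 control samples, 670 and 689 in RNAi-A2 and 1330, 1302 and 1457 in RNAi-B1. In neither gene did the RNAi and control samples overlap, and CHI was higher in every RNAi-B1 sample than in RNAi-A2. The widest margin of all 114 members, 2.67, belonged to 262128_at, with 97.1 to 142 in the controls, 981 and 765 in RNAi-A2 and 1166, 1014 and 917 in RNAi-B1.

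**Figure D1:**
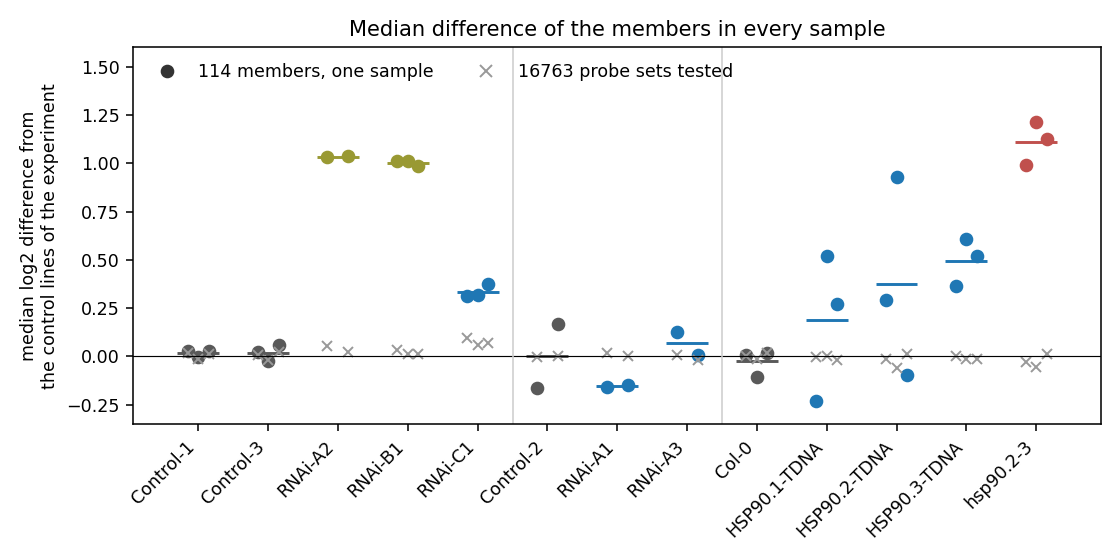
The median over the 114 members of the log2(signal + 16) difference from the control lines of the same experiment, 1 filled point per sample with a bar at the mean of the line, and crosses for all 16763 probe sets tested. Members sit near 1 in RNAi-A2 and RNAi-B1, which chose them, and between 0.99 and 1.22 in hsp90.2-3, while the samples of HSP90.1-TDNA and HSP90.2-TDNA spread from below 0 to 0.52 and 0.93.

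The point mutant hsp90.2-3 shares no sample with the lines that chose the group, and of the lines that did not choose the group it had the most members called higher. Against Col-0, 54 of 114 members were called higher (adjusted p under 0.05 in limma, over all probe sets tested), compared with 5.21% of all 16763 probe sets, and 0 were called lower, compared with 3.54% (2 were lower at an unadjusted p under 0.05, compared with 11.4%). The median log2 change of the members was 1.08, with -0.03 over all probe sets. At least 1.5-fold higher were 84 members (5.88% of all probe sets), and 5 members had a change below 0. In 69 members every hsp90.2-3 sample was above every Col-0 sample, as in 11.7% of all probe sets. The medians of the 3 samples were 0.99, 1.22 and 1.13. Each of the 6 samples was left out in turn, and 33 of the 54 calls held throughout, with 38 to 49 calls in a single fit. The methods' t-test called 0 members after adjustment, with 49 higher and 2 lower at an unadjusted p under 0.05. The members were tested with their level in RNAi-A2 and RNAi-B1 known to be high: 29 of the 114 had a Col-0 mean under the filter signal of 91.15, and 10 of the 54 called were among these. In 1 of the 54, AT1G10340, the hsp90.2-3 mean was under it as well.

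The expansin-like gene EXLA1, whose protein family loosens cell walls, was 232, 276 and 316 in Col-0 and 1212, 952 and 2072 in hsp90.2-3. The groups did not overlap, and the log2 change was 2.23 ± 0.37 (SE, adjusted p = 0.000389, limma). AT1G05340, a small protein with a cysteine-rich transmembrane module of the kind induced by stress, was 113, 108 and 108 in Col-0 and 515, 334 and 294 in hsp90.2-3. The groups did not overlap, with a change of 1.62 ± 0.26 (SE, adjusted p = 0.000335, limma). The late embryogenesis abundant gene LEA4-5, which protects cells from drying, was 24.4, 100 and 82.8 in Col-0 and 321, 300 and 257 in hsp90.2-3. Its change of 1.99 ± 0.51 (SE) was called (adjusted p = 0.0145, limma), but not without Col-0 sample 1 (0.0914) or without hsp90.2-3 sample 1 (0.0547).

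The largest changes among called members were in probe sets with no gene in the table. For 266246_at the signal was 11.7, 15.6 and 11.2 in Col-0 and 212, 134 and 118 in hsp90.2-3, with no overlap. Its log2 change was 2.53 ± 0.34 (SE, adjusted p = 5.27e-05, limma), and its Col-0 level was under the filter signal. For 266462_at the signal was 93.2, 161 and 180 in Col-0 and 1427, 1099 and 667 in hsp90.2-3, a change of 2.73 ± 0.48 (SE, adjusted p = 0.000773, limma). The change of 247949_at, 2.84, was larger, yet its Col-0 samples disagreed (142, 20.9 and 10.4) and the call was lost without Col-0 sample 2 or 3 (adjusted p of 0.0549 and 0.0609). After EXLA1, with 2.23, came 245329_at with 2.13, AT5G05220 with 2.09, 253485_at with 2.06 and 260203_at with 2.01, these 4 called whichever of the 6 samples was left out.

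Of the 42 members with a gene, 19 were called higher in hsp90.2-3, and differences between roles were not tested. Among 4 genes with immune receptor or receptor kinase domains, 0 were called, although all 4 had a change above 0 with a median of 0.89. AT5G58120, a TIR-type receptor of the class that HSP90 stabilises, was 45.4, 65.6 and 37.8 in Col-0 and 253, 160 and 232 in hsp90.2-3. Its groups did not overlap and its change was 1.81 ± 0.59 (SE), just short of the threshold (adjusted p = 0.0539, limma). The leucine-rich repeat receptor kinase AT1G74360, the receptor-like kinase AT1G66880 and AT1G57630 had changes of 1.04, 0.53 and 0.74 with adjusted p of 0.0737, 0.0818 and 0.503.

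CHI and a pair of carbohydrate-binding lectins gave 0 calls of 3. CHI was 484.7, 1935 and 1387 in hsp90.2-3 and 988, 368 and 456 in Col-0, so that the groups overlapped. The curculin-like lectin AT5G18470 had a change of 1.31 (adjusted p = 0.0515) and the jacalin lectin AT1G52000 one of -0.08 (adjusted p = 0.898). The 3 hormone-modifying enzymes were not called either. GH3.3, which conjugates auxin to amino acids, had a change of 0.50 (adjusted p = 0.386). JRG21 and AT2G38240, oxygenases that inactivate jasmonic acid, had 0.99 and 1.63 (adjusted p of 0.38 and 0.0776).

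Of 8 genes for stress-associated small or membrane-associated proteins, 4 were called higher, with a median of 1.03. Beside AT1G05340 and LEA4-5, these were AT5G13200, which has a GRAM domain and responds to abscisic acid (1.59, adjusted p = 0.00116), and SIS, a salt-induced serine-rich protein (1.41, adjusted p = 0.0176). SIS was not called without Col-0 sample 1 (0.105) or hsp90.2-3 sample 1 (0.0831). The other transmembrane-module gene AT1G56060 had 0.57, the lipid transfer genes AT2G37870 and AT5G59330 had 0.64 and 0.14, and AT1G57550, a small hydrophobic protein of the cold and salt response, had 0.05. None of these 4 was called. Among 5 genes for calcium or metal binding, a C2 domain or a channel, AT1G11960 of the osmosensing channel family (1.11, adjusted p = 0.00711) and the metal-binding-domain gene AT5G52760 (1.72, adjusted p = 0.0384) were called. The latter kept its call without Col-0 sample 3 and lost it without any of the other 5 samples (adjusted p of 0.0606 to 0.161). The EF-hand genes AT3G47480 and AT5G39670 and the C2-domain gene AT4G00700 had 0.45, 0.03 and 0.51.

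Of 10 genes in other known protein classes, 5 were called higher. MGL, which breaks down methionine, was 580, 705 and 592 in Col-0 and 1177, 1493 and 1117 in hsp90.2-3. Its samples did not overlap, and the change was 0.99 ± 0.19 (SE, adjusted p = 0.00187, limma). The phosphoglycerate mutase family gene AT3G60420 (1.36), AT2G28400, of a family linked to leaf senescence (1.29), and the ankyrin repeat gene AT1G10340 (1.69) were called as well, the last not without Col-0 sample 1 or 2 or hsp90.2-3 sample 1 or 2 (adjusted p of 0.0668 to 0.0975). The mean signal of AT1G10340 was 12.0 in Col-0 and 74.2 in hsp90.2-3, both under the filter signal of 91.15, so that it was tested through its level in RNAi-A2 (164.1) and RNAi-B1 (164.4). The glycolipid transfer gene AT4G39670 had 1.57, AT2G25640 0.95, AT3G28540 0.65, the glutaredoxin GRX480 0.64 and AT5G45630 0.33, and none of these 5 was called. Among the 9 genes for which no role is given here, 8 were called, with a median of 1.69. They included AT1G16850 (1.83), AT5G65300 (1.81), AT1G65490 (1.77), AT1G30260 (1.69) and AT3G11420 (0.97), each called whichever sample was left out. AT5G05220, described above, did so too. AT1G15010 (1.3, adjusted p = 0.0295) lost its call without Col-0 sample 1 or 3 or hsp90.2-3 sample 1 or 3, with adjusted p up to 0.166. AT5G41100 (0.71, adjusted p = 0.0295) lost it without Col-0 sample 1 or 2 or hsp90.2-3 sample 1, with adjusted p up to 0.148. AT2G18690 (0.97) was the gene of this class that was not called.

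**Figure D2:**
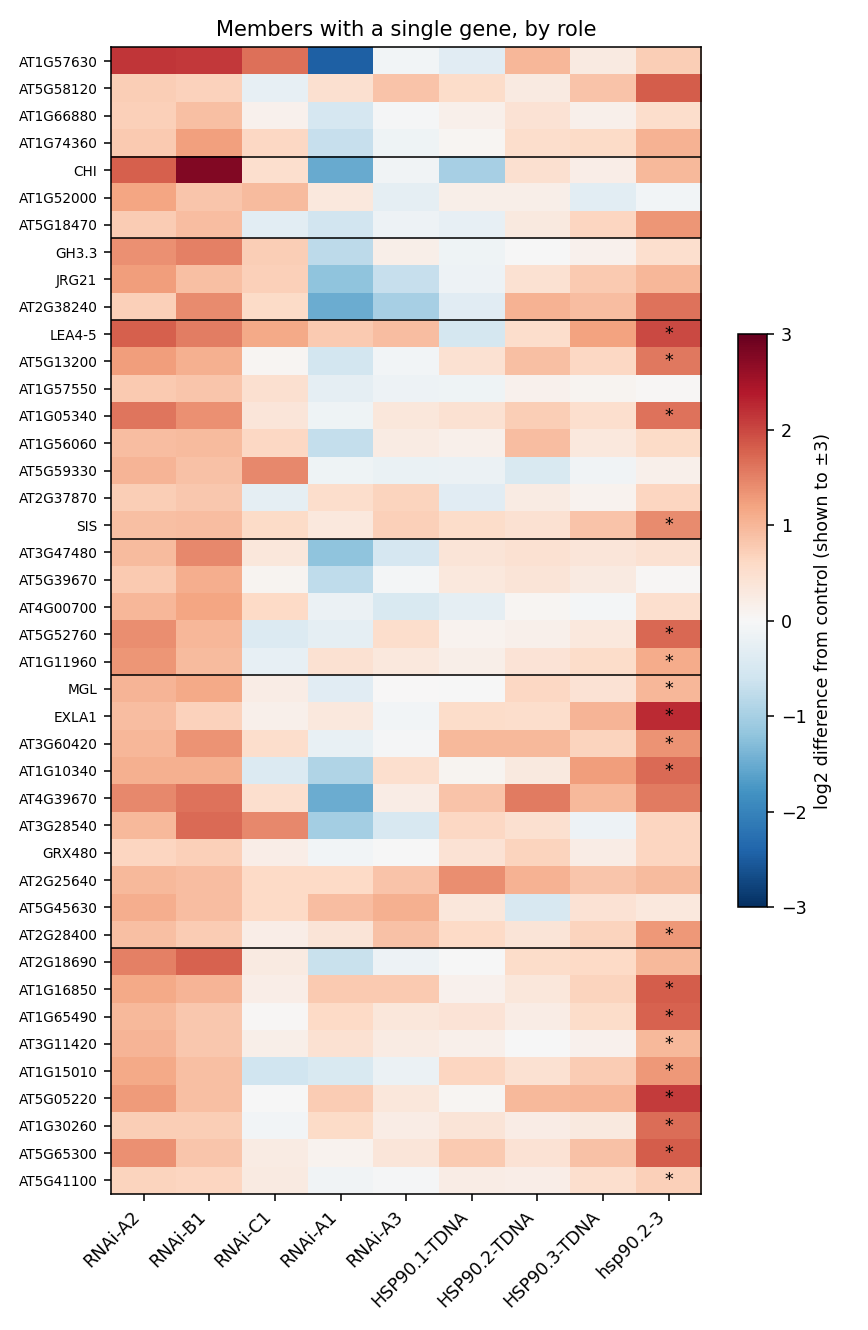
Log2 difference from the control lines for the 42 members with a single gene (rows, in blocks by role in the order of the text) in the 9 HSP90-reduced lines (columns), with an asterisk where limma called the change outside the choosing experiment. The block without a role holds 8 of the 19 asterisks of hsp90.2-3, the top 3 blocks hold 0, and in RNAi-A1 16 of the 42 genes are above 0.

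Over the 114 members, the mean difference in RNAi-A2 and RNAi-B1 that chose them was only weakly related to the change in hsp90.2-3. Pearson's r was 0.151 and Spearman's rho 0.18, as a description over probe sets that share the same samples. The choice left out smaller differences in RNAi-A2 and RNAi-B1, which narrows their range. These values therefore cannot decide how the differences and the change go together beyond the group. The 54 members called in hsp90.2-3 had a median of 1.01 in RNAi-A2 and 0.91 in RNAi-B1, and the other 60 had 0.99 and 1.14. The member with the widest margin, 262128_at, was 1605, 1160 and 586 in hsp90.2-3 and 279, 282 and 152 in Col-0. This is a change of 2.09 ± 0.67 (SE), not called at an adjusted p of 0.0506 (limma). The lowest change was that of 266766_at (-0.72, adjusted p = 0.0609), which was called lower when only the lines compared were fitted or when the filter was set at the 50th percentile.

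The HSP90-TDNA lines were compared with the same Col-0 samples as hsp90.2-3, so the comparisons are not independent of each other. The median log2 change of the members was highest in HSP90.3-TDNA (0.55), followed by HSP90.2-TDNA (0.39) and HSP90.1-TDNA (0.16), with -0.016, -0.027 and -0.0085 over all probe sets. In this order of lines, limma called 1, 0 and 0 members higher, compared with 0.0477%, 0% and 0.00597% of all probe sets, and 0 lower in each line, compared with 0.0418%, 0.00597% and 0.0179%. At an unadjusted p under 0.05, 37, 19 and 12 members were higher, compared with 5.02%, 3.56% and 4.03%, and 0, 1 and 1 were lower, compared with 4.04%, 3.6% and 3.41%. By the methods' t-test the numbers higher were 14, 1 and 3. At least 1.5-fold higher were 52, 26 and 14 members, compared with 3.19%, 1.89% and 1.91% of all probe sets. Of the 114 members, 98, 97 and 94 had a mean over the filter signal in the T-DNA line or in Col-0. The others were tested through their level in other lines. They are included in these counts, so the comparison with all probe sets is not free of the choice.

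In HSP90.1-TDNA and HSP90.2-TDNA the samples of a line lay far apart. The median of the members was -0.23, 0.52 and 0.27 in the samples of HSP90.1-TDNA, 0.29, 0.93 and -0.10 in HSP90.2-TDNA and 0.36, 0.61 and 0.52 in HSP90.3-TDNA. Over Col-0 it was 0.01, -0.10 and 0.02, so that HSP90.3-TDNA was the T-DNA line whose samples all lay above those of Col-0. Without sample 2 the line median fell from 0.16 to 0.021 in HSP90.1-TDNA and from 0.39 to 0.098 in HSP90.2-TDNA. Without HSP90.1-TDNA sample 1 or HSP90.2-TDNA sample 3 it was 0.33 and 0.59. Sample 2 was the highest of HSP90.2-TDNA for CHI and JRG21. In that line CHI was 783, 3174 and 178, and JRG21 was 165, 1860 and 99.2.

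The member called in HSP90.3-TDNA was 245668_at, a probe set without a gene in the table. It was 683, 648 and 857 in Col-0, 1590, 1848 and 1382 in HSP90.3-TDNA and 2362, 1980 and 2241 in hsp90.2-3. It was 1296, 1006 and 1291 in HSP90.1-TDNA and 995, 1188 and 1157 in HSP90.2-TDNA, so that all 12 mutant samples were above all of Col-0. The log2 change was 1.12 ± 0.19 (SE, adjusted p = 0.00959, limma) in HSP90.3-TDNA and 1.57 (adjusted p = 1.32e-05) in hsp90.2-3. The first was not called without Col-0 sample 2 (adjusted p = 0.103) or HSP90.3-TDNA sample 2 (adjusted p = 0.106). In HSP90.1-TDNA its change was 0.70 and in HSP90.2-TDNA 0.61 (adjusted p of 0.398 and 0.521).

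Members with the smallest p in the other T-DNA comparisons did not pass the threshold. AT3G60420 was 213, 282 and 402 in Col-0, 334, 636 and 920 in HSP90.1-TDNA and 489, 441 and 928 in HSP90.2-TDNA. Its change was 0.97 and 0.98 in these lines (adjusted p of 0.398 and 0.406), with overlap in the first and none in the second. In HSP90.2-TDNA, 266995_at had 1.41 and MGL 0.61 (adjusted p of 0.403 and 0.516), and in HSP90.1-TDNA, AT5G65300 had 0.78 (adjusted p = 0.452). In HSP90.3-TDNA, 266246_at had 1.43 and 260205_at 1.15 (adjusted p of 0.138 each), and both were called without HSP90.3-TDNA sample 1 (0.0242 and 0.0256). For 262128_at and 266462_at this same sample stood at 2245 and 962, against 178 and 160, and 162 and 99.3, in the other samples of the line.

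**Figure D3:**
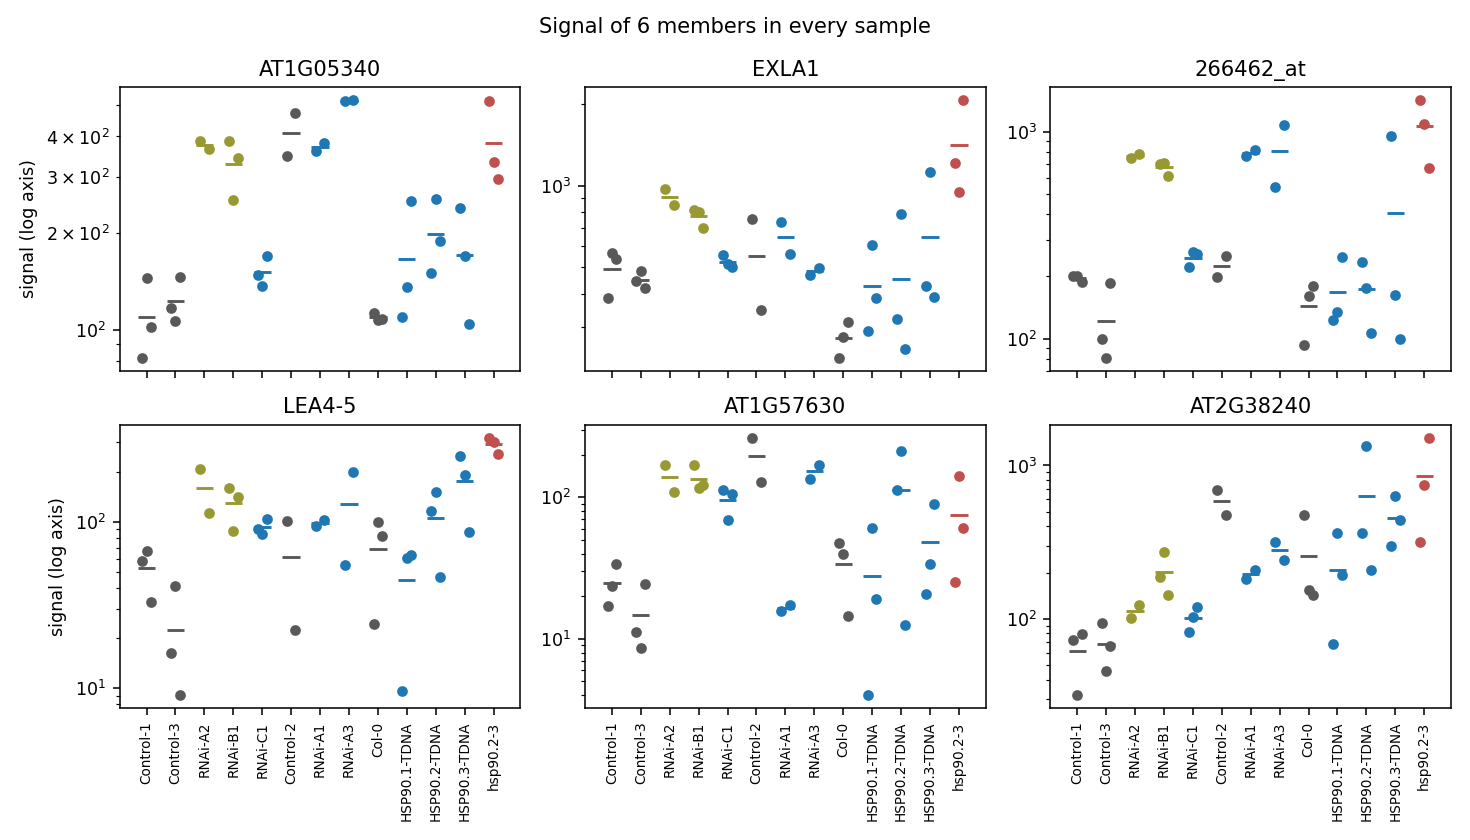
Signal of 6 members (linear MAS5 units on a log axis) in each of the 35 samples, with a bar at the mean of each line and lines ordered by experiment. AT1G05340, EXLA1, 266462_at and LEA4-5 have all hsp90.2-3 samples above all Col-0 samples, whereas AT1G57630 and AT2G38240 are higher in Control-2 than in RNAi-A1 and spread widely within the HSP90-TDNA lines.

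The difference between hsp90.2-3 and the mean of the 3 HSP90-TDNA lines was tested directly, in the same fit. It was called higher for 39 of 114 members, compared with 3.09% of all probe sets, and lower for 0, compared with 2.83%. The median difference was 0.64, and 36 of the 39 were among the 54 members called against Col-0. EXLA1 was 291 to 605 in HSP90.1-TDNA, 250.1 to 785 in HSP90.2-TDNA and 388 to 1125 in HSP90.3-TDNA, so its highest T-DNA sample lay above the lowest sample of hsp90.2-3. Its difference was 1.52 ± 0.30 (SE, adjusted p = 0.00285, limma), lost without hsp90.2-3 sample 3 (0.0587). The difference of 266462_at was 2.33 ± 0.39 (SE, adjusted p = 0.000776, limma), and that of 251272_at was 1.52 (adjusted p = 0.000511). For 251272_at all hsp90.2-3 samples (967, 1160 and 908) exceeded all T-DNA samples (205 to 586). For 266462_at hsp90.2-3 sample 3 (667) was below the highest T-DNA sample (962). The number called was 19 without hsp90.2-3 sample 1 and 26 without sample 3, and 16 of the 39 calls held whichever of the 12 samples was left out.

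RNAi-A1 carries the same construct as RNAi-A2, but the lines were set against different controls. The control of RNAi-A1, Control-2, was a median of 0.66 above Control-1 and Control-3 over the members (0.14 over all probe sets). The signs in RNAi-A1 and RNAi-A2 therefore do not compare the levels of these lines. More members were lower than higher in RNAi-A1 than in Control-2. The median log2 change was -0.13 (0.01 over all probe sets), and 40 of 114 members were above 0. Without Control-2 sample 1 the median was -0.37 and without Control-2 sample 2 it was -0.014. At least 1.5-fold lower were 33 members, compared with 2.1% of all probe sets, and 15 were at least 1.5-fold higher, compared with 1.18%. The median within-line SD was 0.49 for the members and 0.20 for all probe sets, over the lines that did not choose the group. These counts were not adjusted for that spread. A mean over the filter signal in RNAi-A1 or Control-2 was found for 107 of the 114 members, and the others are included in these counts. In 42 members both samples of RNAi-A1 were below both of Control-2, as in 15.6% of all probe sets. Limma called 0 members higher (0% of all probe sets) and 0 lower (0.00597%). At an unadjusted p under 0.05, 9 were higher (1.98%) and 15 lower (2.3%), and by Welch's t-test 3 and 3. For an experiment with technical arrays, as this one, the methods name a two-way ANOVA, which was not run here.

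AT1G57630, the leading gene of the group, was 264 and 128 in Control-2 and 15.8 and 17.3 in RNAi-A1, a log2 change of -2.45 ± 0.70 (SE, adjusted p = 0.525, limma). The samples did not overlap. The calcium-binding gene AT3G47480 was 115 and 182 in Control-2 and 76.3 and 35.6 in RNAi-A1 (-1.21, adjusted p = 0.373). For 250445_at the signals were 247 and 610 against 115 and 141 (-1.50, adjusted p = 0.376). Other members that were lower without overlap included CHI (-1.50), AT4G39670 (-1.49), AT2G38240 (-1.49) and JRG21 (-1.22), and none of these was called.

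Other members had higher signals in RNAi-A1. For 266462_at the signal was 198 and 251 in Control-2 and 765 and 820 in RNAi-A1, with 544 and 1080 in RNAi-A3. The groups did not overlap in either line, and the changes of 1.78 and 1.73 were not called (adjusted p of 0.794 and 0.623). For 267538_at the signal was 68.0 and 203 in Control-2, 274 and 257 in RNAi-A1 and 193 and 261 in RNAi-A3 (1.06 and 0.83, adjusted p of 0.373 and 0.623). Both changes of 267538_at were called without Control-2 sample 2 (adjusted p of 0.00194 and 0.00744), which leaves Control-2 with its lower sample of 68.0, assumed in that fit to vary like the other lines.

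The comparison of RNAi-A1 with Control-2 shares no sample with that of hsp90.2-3 with Col-0. Of the 33 members at least 1.5-fold lower in RNAi-A1, 3 were called in hsp90.2-3, with a median change of 0.97 there. Of the 15 that were at least 1.5-fold higher, 10 were called, with a median of 1.83, and of the 66 between these limits 41 were called, with a median of 1.07. Pearson's r between both changes was 0.281 over the members and -0.07 over all probe sets tested, given as a description. For RNAi-A3, which was also set against Control-2, r with hsp90.2-3 was 0.281 and 0.09, so the relation was not particular to RNAi-A1. These classes of members by RNAi-A1 were drawn after their values were seen and were not tested. The share called among all probe sets of the same classes was not determined. The counts therefore cannot show whether the contrast is particular to the members. The 33 lower members had a median in Control-2 of 0.78 above Control-1 and Control-3, against 0.50 for the 15 higher ones and 0.68 for the 66 between. Control-2 enters both values, and its part in the result was not tested.

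**Figure D4:**
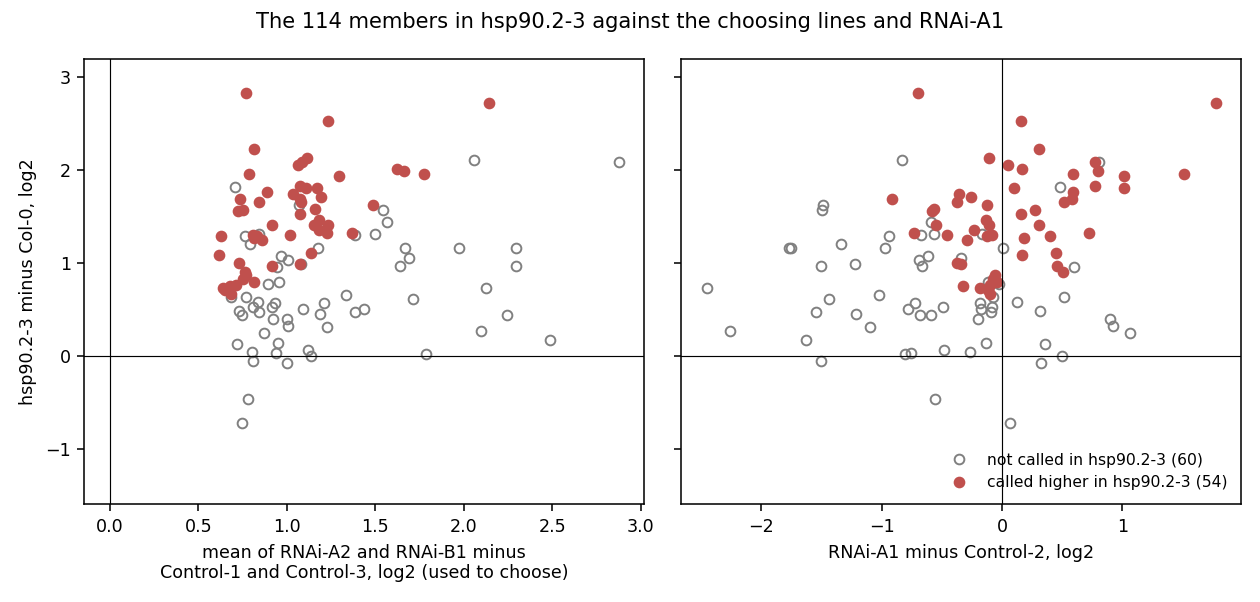
Log2 change of the 114 members in hsp90.2-3 against Col-0 (vertical axes) over the mean difference that chose them (left, RNAi-A2 and RNAi-B1) and over the change in RNAi-A1 against Control-2 (right), with filled points for the 54 members called higher in hsp90.2-3. Most points lie above 0 on the vertical axis in both panels, while on the right 40 of the 114 members lie right of 0.

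In RNAi-A3, the remaining line with construct A, the members lay on both sides of Control-2, with log2 changes from -1.59 to 1.73. The median was 0.04, and it was -0.084 without Control-2 sample 1, 0.24 without Control-2 sample 2, 0.0085 without RNAi-A3 sample 1 and 0.13 without RNAi-A3 sample 2. There were 17 members at least 1.5-fold higher (1.46% of all probe sets) and 6 lower (3.38%). A mean over the filter signal in RNAi-A3 or Control-2 was found for 108 of the 114 members, and the others are included in these counts. Limma called 0 higher (0.0119% of all probe sets) and 0 lower (0%). At an unadjusted p under 0.05, 7 members were higher (2.08%) and 1 lower (3.45%), and by Welch's t-test 1 and 0. AT2G28400 was 303 and 575 in Control-2 and 844 and 714 in RNAi-A3 (0.87, adjusted p = 0.554), and 251272_at was 106 and 185 against 217 and 469 (1.11, adjusted p = 0.623). Neither pair of groups overlapped. LEA4-5 was 101 and 22.3 in Control-2, 55.4 and 200.3 in RNAi-A3 and 93.8 and 103 in RNAi-A1, a spread that leaves no order among these lines.

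The direct difference of RNAi-A1 from RNAi-A3 was added after the values of both lines were seen. It was at least 1.5-fold lower for 28 members (2.33% of all probe sets), and 14 members were lower at an unadjusted p under 0.05 (3.14%), but 0 were called lower (0.0119%). For AT1G57630 the difference was -2.37 (adjusted p = 0.357), since it was 136 and 170 in RNAi-A3, within the range of Control-2. With the outlying array of RNAi-A3 kept, 10 members were called lower in this comparison, compared with 3.77% of all probe sets tested then.

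RNAi-C1 was measured with the same control samples that chose the group, so its values are given without a test. Its median difference from both controls was 0.31 over the members and 0.08 over all probe sets, with sample medians of 0.31, 0.32 and 0.37. At least 1.5-fold above each control line were 22 members, compared with 2.54% of all probe sets, and 2 were as far below, compared with 1.45%. The members were chosen for low values in these same control samples, so the comparison with all probe sets is not free of the choice. Among members with a gene, AT1G57630 was the highest in RNAi-C1 (1.66), with 113, 68.8 and 105 there, above all 6 control samples. AT5G59330, the AAA-type ATPase gene AT3G28540, LEA4-5 and AT1G52000 followed with 1.44, 1.43, 1.14 and 0.95. The lowest were AT1G15010, AT1G10340, AT5G52760, AT5G18470 and AT2G37870, with -0.60, -0.42, -0.42, -0.31 and -0.26. AT1G15010 was 215, 228 and 226 in RNAi-C1, below the 284 to 394 of all control samples, and 633 to 783 over RNAi-A2 and RNAi-B1. Of the 22 members at least 1.5-fold above each control line, 4 were called in hsp90.2-3, and of the other 92, 50 were. The share called among all probe sets at this limit was not determined, and the split was not tested. The median level in Col-0 relative to Control-1 and Control-3 was 0.50 for the 22 and -0.10 for the 92.

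The members varied more between samples of a line than the array as a whole. Over the 9 lines that did not choose them, the median within-line SD was 0.49 for the members and 0.20 for all probe sets tested, on the log2 scale with 15 degrees of freedom. The counts of members past 1.5-fold in each line, in either direction, were not adjusted for this. Their mean level in those lines was 8.05, against 8.52 for all probe sets, so the members were somewhat dimmer. The 4 control lines also differed. The median range of their line means was 1.1 for the members and 0.55 for all probe sets. Control-2 was a median of 0.66 above Control-1 and Control-3 (0.14 over all probe sets) and Col-0 0.01 above them (0.10). Control-1 and Control-3 enter the range and these medians, and the members were chosen for low values there. Neither measure is therefore independent of the choice. AT2G38240 was 31.6 to 93.1 in Control-1 and Control-3 but 691 and 474 in Control-2, above all samples of RNAi-A2 (101 and 123) and RNAi-B1 (142 to 272). Control-1 and Control-3 shared an experiment and differed by a median of -0.0082 (Control-3 minus Control-1). Control-2 and Col-0 were each in another, where experiment and line cannot be told apart.

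Of the named members, none lay within 10 genes of the mapped inserts of RNAi-A2, RNAi-B1, Control-1 or Control-3 in the gene order of TAIR10.1. The nearest pair of members was AT1G57550 and AT1G57630, 10 genes apart, and all others were at least 40 apart. Lists of stress and hormone genes touched the group in 3 places, and few listed genes have a named probe set. Of 43 genes of water deficit and cold, 7 were tested and LEA4-5 was the member. In hsp90.2-3, LEA4-5 and the dehydrins COR47 (0.95, adjusted p = 0.000206) and LTI30 (1.33, adjusted p = 0.0472) were called higher and 0 lower, with a median of 0.29 over the 7. Of 18 genes of salicylic acid and defence, 3 were tested, GRX480 among them, and the transcription factor gene WRKY53 was called higher (1.67, adjusted p = 0.0206). Of 11 auxin genes 3 were tested, and WES1, which conjugates auxin as GH3.3 does, was called higher (1.07, adjusted p = 0.0044). In the HSP90-TDNA lines, RNAi-A1 and RNAi-A3, 0 genes of these 3 lists were called in either direction.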

How the data were processed

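Per the labels, aerial tissue of 13 Arabidopsis lines was hybridized to ATH-1 arrays. The deposited intensity values are linear MAS5 signals that the authors scaled to a common trimmed mean, with no detection filter. The methods name PLIER instead, and no version of either is given. Probe sets matching several transcripts cannot separate them.

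Values were taken as log2(signal + 16), technical arrays were averaged, and 1 array of RNAi-A3 that correlated poorly with the median profile was left out. The 16763 probe sets with a line mean above the 35th percentile (91.15) were tested in limma 3.58.1 (R 4.3.3), with a mean per line, 22 residual and 3.23 prior degrees of freedom, and Benjamini-Hochberg adjustment over all of them. P-values and adjusted p-values in the text are from this fit. The offset understates changes of dim probe sets. The labels call the samples of a line biological replicates. Whether they were sown or grown apart is not given in the sources used here, and p-values measure the spread between these pools. RNAi-A2 has 2 samples here, and the methods state 3.

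Control-2 served as the control of RNAi-A1 and RNAi-A3, and Col-0 as that of the HSP90-TDNA lines and hsp90.2-3. The members and gene lists were chosen with earlier results of these data known. Named are the 15 members with a gene and the largest smallest difference, up to 8 called members per comparison or the 3 of smallest p, the 5 highest and lowest in RNAi-C1, members on a list and probe sets at the limit. The other members with a gene were added by role. Genes were named through the probe table (13513 probe sets with 1 gene, 503 with several, 8730 with none). Deviations of samples of the same number had median correlations of -0.084, 0.050 and 0.066 in the experiments of RNAi-A1, RNAi-B1 and Col-0. For different numbers they were 0.084, -0.033 and -0.033. With hsp90.2-3 counted beside Col-0, the array control probe sets had medians of 176 to 219 in samples numbered 3. Samples numbered 1 and 2 had 229 to 295. The numbers were not taken to pair samples, and an effect shared by samples of a number was not tested. Alternatives were other offsets, filters, quantile normalization, a replicate block, the lines compared alone, the outlying array kept, Welch's test and each sample left out.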

Additional observations from a re-analysis of the deposited data

Results flagged for a closer look

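The changes in hsp90.2-3 and in the HSP90-TDNA lines, both against Col-0, differed by a test of the difference itself (limma, hsp90.2-3 minus the mean of the 3 HSP90-TDNA lines). It was called for 39 members, all higher in hsp90.2-3. The number was 5 with only the lines compared, 7 by Welch's t-test on pooled T-DNA samples and 19 without hsp90.2-3 sample 1. Of the 39 calls, 16 held whichever of the 12 samples was left out, while LEA4-5, AT5G52760 and AT1G11960 lost theirs in 3, 5 and 6 of these fits. Among members with a gene, the log2 difference was 1.05 for AT1G05340, 1.59 for LEA4-5, 1.45 for AT1G16850, 0.93 for AT5G13200, 0.64 for MGL, 1.53 for AT5G52760 and 0.74 for AT1G11960. It was 1.37 for AT1G65490, 0.88 for AT3G11420, 1.41 for AT5G05220, 1.39 for AT1G30260, 1.11 for AT5G65300, 1.52 for EXLA1 and 0.75 for AT2G28400. Among probe sets without a gene it was 2.14 for 262128_at, 2.33 for 266462_at, 1.34 for 260203_at, 1.66 for 266246_at, 1.40 for 253485_at, 0.98 for 260205_at, 1.69 for 245329_at, 1.52 for 251272_at and 0.76 for 245668_at. No experiment is stated for hsp90.2-3, so a difference of experiment and one of line cannot be told apart here.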

How the results depend on the processing

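The limits of the choice gave 114 members, against 73 with an offset of 64, 29 with a 2-fold limit, 194 with no minimum signal and 102 to 122 with a sample left out. The number called higher in hsp90.2-3 was 54, 35 when only the lines compared were fitted, 0 by the methods' t-test after adjustment, and 38 to 49 with a sample left out. The number called lower was 0, and 1 with the 50th percentile filter or only the lines compared (0 with any sample left out). Against the HSP90-TDNA lines 39 were called, 5 with only the lines compared and 25 with the outlying array kept. Welch's t-test on pooled T-DNA samples called 7. With a sample left out the number was 19 to 53, the ends without hsp90.2-3 sample 1 and HSP90.2-TDNA sample 2. The number in HSP90.3-TDNA was 1, 0 with only the lines compared or the methods' t-test, and 0 to 3 with a sample left out. With a sample left out it was 0 in HSP90.1-TDNA and HSP90.2-TDNA, 0 to 1 in RNAi-A1 and 0 to 2 in RNAi-A3, where keeping the outlying array gave 2. That array kept gave 10 members lower in RNAi-A1 than RNAi-A3 (0 with any sample left out).

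The median log2 change in RNAi-A1, -0.13, was -0.16 and -0.11 with offsets of 4 and 64, -0.14 after quantile normalization, -0.11 with the 50th percentile filter and -0.37 to -0.014 with a sample left out. That in hsp90.2-3, 1.08, was 0.90 with an offset of 64 and 0.96 to 1.21 with a sample left out. The ranges were -0.084 to 0.24 in RNAi-A3, 0.02 to 0.33 in HSP90.1-TDNA, 0.10 to 0.59 in HSP90.2-TDNA and 0.45 to 0.60 in HSP90.3-TDNA. With the replicate number as a replicate block the counts were 54 and 39, and no count of members called changed. Of 1128 values of single members under other settings, 977 kept direction and side of the threshold, 146 lost the call, 5 gained it and 0 changed direction. The cause of these shifts was not tested. Lines with 2 or 3 samples limit the precision of these values.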
